A study of Mus musculus with 27 samples.

Results

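The response of primary mouse microglia to 24(S)-saringosterol, a sterol of brown algae, was compared with the response of bone marrow-derived macrophages (BMDM) to the same compound. The comparison used 12 of the 27 libraries of the series, in 4 groups of 3: microglia and BMDM, each with 10 µM 24(S)-saringosterol or with its ethanol vehicle. It was chosen as the difference between both within-cell-type changes, (saringosterol minus vehicle in microglia) minus (saringosterol minus vehicle in BMDM), on the log2 scale. The labels' protocols state that microglia came from mixed glia by shaking, and BMDM were grown from bone marrow for 6 days with 25 ng/ml of the growth factor M-CSF. All 4 groups were then held for 24 h in one serum-free medium based on DMEM/F12 with insulin, transferrin, selenite, 25 ng/ml M-CSF and 0.1% fatty-acid-free albumin, so that M-CSF was present in vehicle and treated cells of both types. The microglia were cultured and not taken freshly from brain. The labels used here give no strain, sex or age, and no genetic change in any group. Whether the 3 libraries of each group come from separate animals or cultures is not said, so p-values here reflect only how much these libraries vary, which may be technical. The series title asks whether the sterol acts on lipid and inflammatory genes in a way that depends on the cell.

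Microglia and BMDM are both macrophages that depend on the receptor Csf1r, but microglia descend from the yolk sac and BMDM from adult bone marrow. Oxidised sterols and some plant and algal sterols activate the liver X receptors (LXR), which switch on genes that carry cholesterol out of the cell, while sterols also hold back the SREBP factors that drive cholesterol synthesis. Macrophages store surplus sterol as esters in lipid droplets, made by the acyltransferases Soat1 and Soat2 and coated by Plin2. LXR activity is also known to restrain inflammatory and interferon-driven genes, and class II of the major histocompatibility complex (MHC) presents antigen to helper T cells.

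Total counts lay between 32203386 and 41040268 per library, so that a count of 0 allows up to 3 counts, 0.0731 to 0.0932 CPM (counts scaled to a common library size). This floor covers counting error only, since reads without molecular identifiers are not independent molecules. Saringosterol replicate 3 of BMDM stood apart: its counts differed from those of replicates 1 and 2 with a chi-square per degree of freedom of 33.54 and 32.29, against 3.607 to 11.53 for the other 10 pairs of replicates. Results whose call depends on that library are given with and without it. Of 16 marker lists, the microglia list summed to 899 to 925 CPM in microglia and 262 to 322 CPM in BMDM. Its transcription factor Sall1 stood at 2.06 to 3.55 CPM in microglia and at 0 in all BMDM libraries, Tmem119 was only 2.53 to 4.86 CPM in microglia, and Siglech was at 0 in them. Macrophage markers summed to 35070 to 36860 CPM in microglia, and in BMDM to 26880 to 28590 CPM with vehicle and 20880 to 22600 CPM with saringosterol. The lysozyme gene Lyz2 made up most of that sum and of its fall (20720 to 22030 and then 15520 to 16480 CPM in BMDM), while Mertk of the same list stood at 144.8 to 162.7 and then 231.6 to 265.2 CPM. Only the macrophage list held members whose response differed (Lyz2 and Cd14, described below). Astrocyte markers summed to 47.6 to 50.6 CPM in vehicle and 30.3 to 36.5 CPM in treated microglia, and to 37.2 to 43.5 and 15.7 to 21.5 CPM in BMDM. Aldh1l1 and Aldoc made up most of these sums and of their fall in both cell types. In BMDM, Aldh1l1 stood at 19.09 to 20.51 and then 8.251 to 12.94 CPM, and Aldoc at 17.14 to 22.83 and then 3.882 to 7.51 CPM. Gfap and Aqp4 did not exceed 0.02446 CPM in BMDM. In microglia, Slc1a3 overlapped between treatments (5.599 to 7.889 and 5.531 to 7.244 CPM). The part of the astrocyte list in the results was not tested. In bulk libraries, fewer cells of a type and less RNA per cell cannot be told apart.

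A small set of genes, led by Plin2, Hpgd and Atf4, responded differently in the 2 cell types. edgeR called a difference in response (adjusted p under 0.05) for 193 of 16481 genes tested, 1.17%. A higher difference, meaning that the change was more upward in microglia, was called for 71 genes (0.431% of the tested) and a lower one for 122 (0.74%). Of the 193, 20 differed at least 2-fold, and 2505 genes had an unadjusted p under 0.05. Without saringosterol replicate 3 of BMDM, 338 of 17044 genes were called (1.98%), 164 higher (0.962%) and 174 lower (1.02%). Of the 193 genes, 180 were called again with the same sign and 13 were not, while 158 were called only without that library.

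Within each cell type, the same fit called 533 genes against vehicle in microglia (3.23%; 268 higher, 265 lower) and 2099 in BMDM (12.7%; 1239 higher, 860 lower). Without replicate 3 the counts were 1069 in microglia (6.27%; 441 or 2.59% higher, 628 or 3.68% lower) and 1934 in BMDM (11.3%; 983 or 5.77% higher, 951 or 5.58% lower). With all libraries, both changes were called for 297 genes, of which 289 moved in the same direction and 8 in opposite directions, and 16 of the 297 also differed in size. By these calls, the 193 genes fell into 8 with opposite changes, 8 with unequal changes in the same direction, 19 called in microglia only, 153 called in BMDM only and 5 called in neither. Without replicate 3 the 338 genes fell into 22, 53, 47, 203 and 13 of these classes, in the same order. The biological coefficient of variation was 0.0713 in the 6 microglia libraries, 0.127 in the 6 BMDM libraries and 0.104 in all 12. Fitted on its own 6 libraries, microglia had 10% and BMDM 8.72% of genes called. In these fits 73 of the 193 genes were called in microglia (22 higher, 51 lower; 3.76% and 6.23% of all genes tested there) and 144 in BMDM (89 higher, 55 lower; 4.58% and 4.14%). Of the 153 genes, 35 were then called in microglia too, 16 of them opposite to BMDM. Of the 8 genes with opposite changes, only 4 stayed opposite, since the BMDM change was called for only 4 of them. The number of opposite genes among the 193 became 20.

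**Figure D1:**
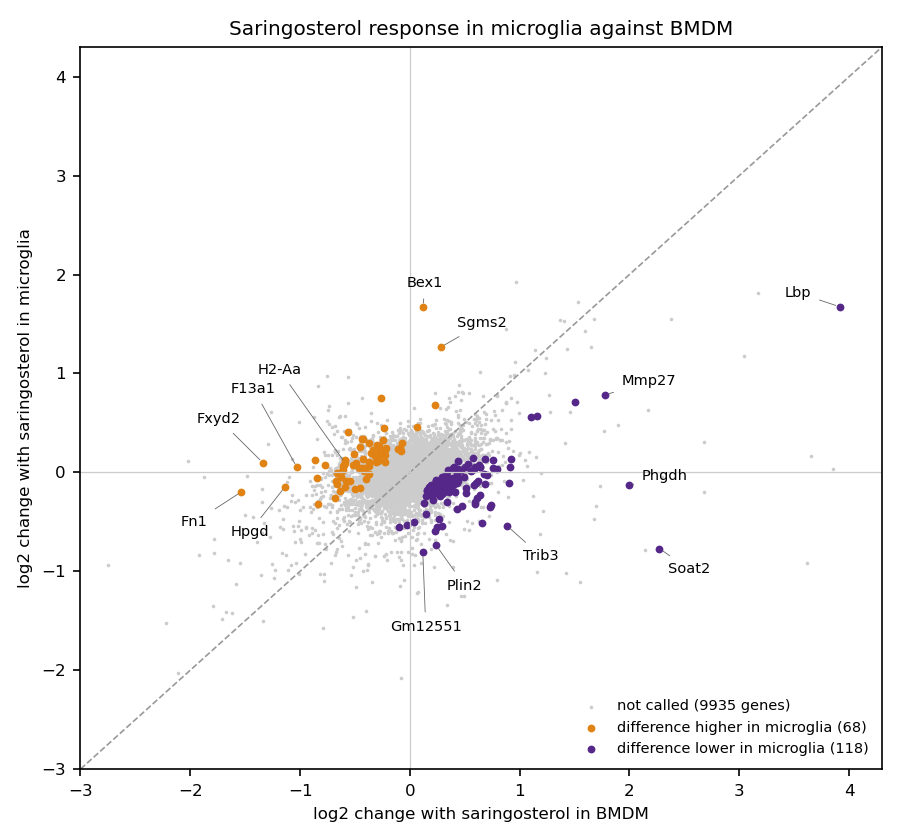
Log2 change with saringosterol in BMDM (horizontal axis) against that in microglia (vertical axis) for the 10121 genes with a mean of at least 5 CPM in a group; each point is a gene, and the dashed line marks equal change. Genes called for the difference are coloured (68 higher and 118 lower in microglia); most of them lie near 0 on the microglia axis and away from 0 on the BMDM axis, and Plin2 and Trib3 lie on opposite sides of 0. 3 genes, none of them called, lie outside the axes.

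The number of calls moved with single libraries of both cell types. Leaving out 1 library at a time gave between 65 calls (without saringosterol microglia replicate 3) and 375 (without saringosterol BMDM replicate 1), and 54 genes were called in all 12 such runs. Plin2, Trib3, Atf4, Soat2, Hpgd, Fxyd2, F13a1, Selenop, Itga4, Mmp27, Jun, Slamf7, Gm12551, Gm8399 and Lyz2 were among these. For most other called genes below, the number of these runs that kept the call is given.

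**Figure D2:**
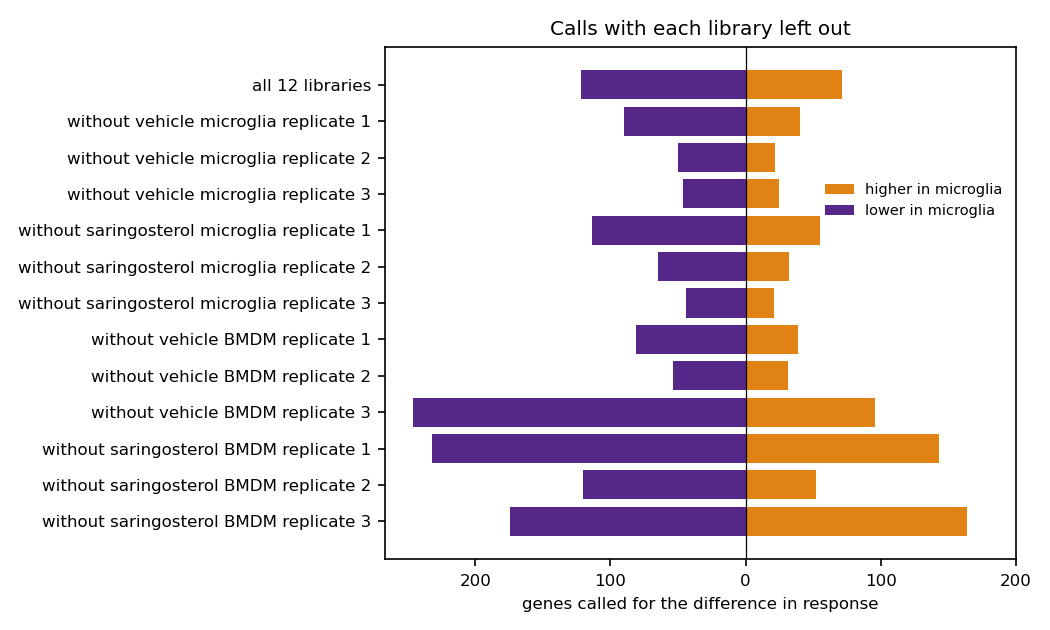
Number of genes called for the difference in response (edgeR adjusted p under 0.05) with all 12 libraries and with each library left out in turn; bars to the right count genes higher in microglia and bars to the left genes lower in microglia. All 12 libraries gave 71 and 122; the runs ranged from 21 to 164 higher and from 44 to 246 lower.

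LXR targets rose in both cell types. Of 17 tested, 13 rose and 1 fell in microglia (median change 0.59 on the log2 scale), where 1.63% of all genes rose and 1.61% fell, and 14 rose and 1 fell in BMDM (median 0.80), where 7.52% rose and 5.22% fell. Over all genes tested the median change was 0.01 in microglia and 0.00 in BMDM. Abca1, the cholesterol exporter, stood at 684.9 to 703.7 CPM in vehicle microglia and 2184 to 2378 CPM with saringosterol, and at 494.3 to 604 and 1535 to 1671 CPM in BMDM, with no overlap between treatments in either cell type. It rose by 1.72 and 1.53 on the log2 scale, and the difference of 0.19 ± 0.08 (SE) was not called (edgeR adjusted p = 0.289). Apoe, a lipoprotein component, rose by 0.38 and 0.37 (difference 0.01, edgeR adjusted p = 0.983), and the lipase gene Lpl by 0.23 and 0.18. No LXR target differed in response by edgeR, DESeq2 (4.46% of all genes called, 1.79% higher and 2.67% lower) or limma-voom (2.51%, 0.959% higher and 1.55% lower). At an unadjusted edgeR p under 0.05 stood 3 of the 17, against 2505 of all 16481 genes tested. The median difference was -0.04, against -0.00 over all genes tested.

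Cholesterol synthesis fell in both cell types, with a smaller fall in microglia for a few members once the outlying library was left out. In microglia 15 of 20 members fell (median -0.83) and in BMDM all 20 (median -1.15), where 1.61% and 5.22% of all genes fell. In the fits of each cell type's own 6 libraries, 19 fell in microglia and 16 in BMDM, where 6.23% and 4.14% of all genes fell. With all 12 libraries edgeR called no difference, DESeq2 called 1 and limma-voom 3, all higher, and the median difference was 0.23. At an unadjusted edgeR p under 0.05 stood 3 members, against 2505 of all 16481 genes tested. Without saringosterol replicate 3 of BMDM, 4 were called higher (0.962% of all genes), namely Hmgcs1, Msmo1, Sqle and Sc5d, and the median became 0.43. Hmgcs1, an early enzyme of the pathway, stood at 73.4 to 83.6 CPM in vehicle microglia and 44.9 to 45.3 CPM with saringosterol, and at 286 to 302 and 121 to 144 CPM in BMDM. It fell by 0.82 and 1.17 on the log2 scale. Its difference of 0.35 missed the threshold with all libraries (edgeR adjusted p = 0.0574) and was 0.43 without replicate 3 (0.00301).

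Among lipid droplet genes, Plin2 changed in opposite directions in the 2 cell types. Plin2 (ENSMUSG00000028494; GRCm38 chromosome 4, 86648386 to 86670060, minus strand), the main coat protein of droplets in macrophages, read 1612, 1702 and 1767 CPM in vehicle microglia and 1014, 1028 and 1006 CPM with saringosterol. In BMDM it read 1292, 1344 and 1400 CPM with vehicle and 1566, 1522 and 1675 CPM with saringosterol. The groups did not overlap in either cell type: all 3 treated microglia libraries were below, and all 3 treated BMDM libraries above, their vehicle libraries. Plin2 fell by 0.74 in microglia (edgeR adjusted p = 5.75e-09) and rose by 0.24 in BMDM (0.00295), a difference of -0.98 ± 0.07 (SE, edgeR adjusted p = 1.05e-07; -0.94 without replicate 3). Of the 9 tested members of the lipid droplet list, edgeR called only Plin2, and DESeq2 and limma-voom each called 1 more, as higher. The coat gene Plin3 differed by -0.09 (edgeR adjusted p = 0.592). The unprocessed pseudogene Gm12551, which lies beside Plin2 on chromosome 4 (86627075 to 86631251), differed by -0.92 (edgeR adjusted p = 0.000303). It read 26.3 to 29.2 CPM in vehicle microglia and 14.9 to 17.3 CPM with saringosterol, against 18.6 to 21.1 and 20.5 to 23.02 CPM in BMDM. How reads from similar sequences and from both strands were assigned is not stated, so its counts are uncertain.

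Of the 2 sterol acyltransferase genes, Soat2 was called for the difference and Soat1 was not; whether they differ from each other was not tested. Soat2 (chromosome 15, 102150526 to 102163469) read 6.34, 7.79 and 7.74 CPM in vehicle microglia and 4.44, 3.52 and 4.85 CPM with saringosterol, against 0.179, 0.118 and 0.315 CPM and 0.757, 0.574 and 1.64 CPM in BMDM. The treated libraries were the lower ones in microglia and the higher ones in BMDM, with no overlap. The difference was -3.04 ± 0.49 (SE, edgeR adjusted p = 0.0031; -2.45 and 0.00155 without replicate 3). The rise in BMDM was called (2.27, edgeR adjusted p = 0.00113), from a level only a few counts above the floor, and the change of -0.77 in microglia was not (0.119; 0.0096 without replicate 3). Soat1, the more abundant gene of the pair at 782 to 1054 CPM, differed by 0.01 (edgeR adjusted p = 0.968). Sgms2, which makes sphingomyelin, read 2.60 to 3.83 CPM in vehicle microglia and 6.81 to 8.53 CPM with saringosterol, a rise of 1.27, and 12.2 to 17.2 against 16.1 to 21.04 CPM in BMDM, a change of 0.28 that was not called (0.22). The difference of 0.98 (edgeR adjusted p = 0.0283) was kept in 6 of the 12 runs (0.0035 to 0.094).

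**Figure D3:**
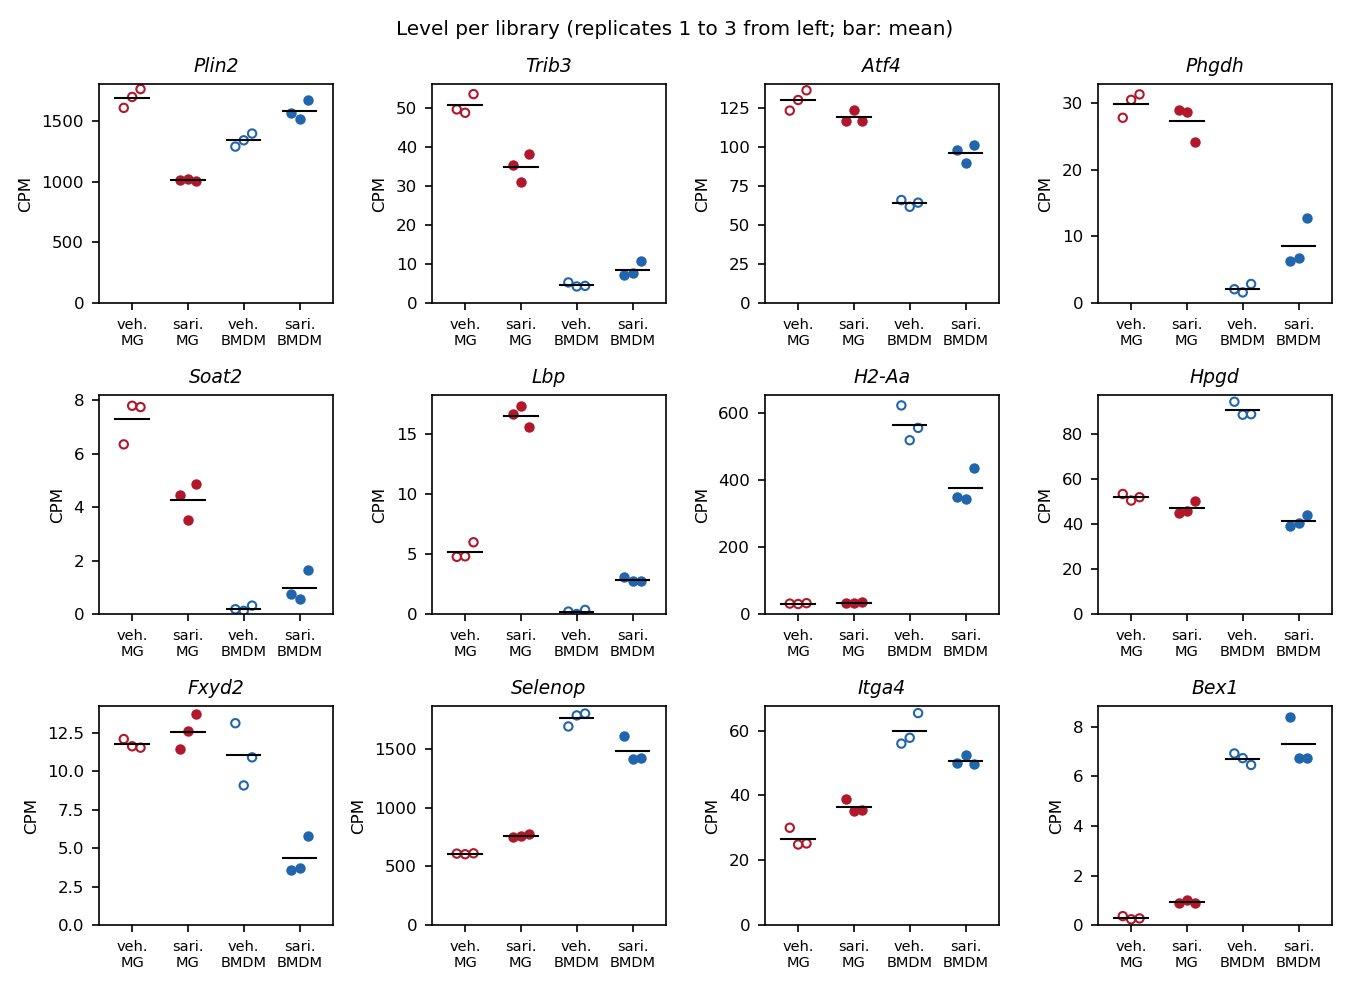
CPM per library of 12 genes called for the difference (vertical axes, each starting at 0), in vehicle and saringosterol microglia (MG) and BMDM; each point is a library, replicates 1 to 3 from left, and the bar is the mean of 3. Plin2 and Trib3 lie lower in treated than in vehicle microglia and higher in treated than in vehicle BMDM, while H2-Aa, Hpgd and Fxyd2 lie lower in treated BMDM alone without overlap.

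Genes of the amino acid response rose in BMDM, and 5 of them responded differently in microglia. This programme is driven by the transcription factor ATF4 and raises the import and synthesis of amino acids when they run short or when translation is under stress. Of 14 tested members, edgeR called 5 with a lower difference and none with a higher one (0.74% of all tested genes had a lower one), with a median difference of -0.63. In BMDM 7 rose (median 0.52), where 7.52% of all genes rose. In microglia none rose and 1 fell (median -0.15), where 1.63% of all genes rose and 1.61% fell. In the fits of each cell type's own 6 libraries, 5 fell and none rose in microglia, where 6.23% of all genes fell. In BMDM 4 then rose and none fell, where 4.58% of all genes rose. Without replicate 3 the number with a lower difference was 7 (1.02% of all genes), with Asns and Mthfd2 added.

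Atf4 itself read 123, 130.1 and 136 CPM in vehicle microglia and 116.5, 124 and 116.5 CPM with saringosterol, and 66.0, 61.7 and 64.3 against 98.2, 89.4 and 101 CPM in BMDM. Treated and vehicle libraries overlapped in microglia and not in BMDM. The rise in BMDM was 0.59 (edgeR adjusted p = 7.4e-07), the change in microglia -0.13 (0.307), and the difference -0.71 ± 0.08 (0.000104). Trib3, a pseudokinase that feeds back on ATF4, went in opposite directions, from 49.8, 48.9 and 53.7 to 35.5, 31.2 and 38.2 CPM in microglia and from 5.29, 4.26 and 4.41 to 7.09, 7.73 and 10.9 CPM in BMDM. Neither pair of groups overlapped. It fell by 0.54 in microglia (edgeR adjusted p = 0.0169) and rose by 0.88 in BMDM (0.000598), a difference of -1.42 ± 0.19 (0.000835).

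Phgdh, the first enzyme of serine synthesis, read 27.9, 30.5 and 31.4 CPM in vehicle microglia and 29.03, 28.7 and 24.1 CPM with saringosterol, against 2.07, 1.60 and 2.86 and 6.37, 6.81 and 12.7 CPM in BMDM. The BMDM groups did not overlap and the microglia groups did. The difference of -2.13 (edgeR adjusted p = 0.038) was kept in 4 of the 12 runs (5.2e-06 to 0.12), and was -1.73 with an adjusted p of 5.15e-06 without replicate 3, the highest BMDM library. The mitochondrial enzyme Shmt2 differed by -0.54 (edgeR adjusted p = 0.0204; kept in 8 runs, 0.0065 to 0.075) and the amino acid transporter Slc7a5 by -0.81 (0.0436; kept in 4 runs). Asns, which makes asparagine, read 33.8, 40.3 and 62.3 CPM in treated BMDM against 19.9 to 21.5 CPM with vehicle, and its difference passed the threshold only without the third library (-1.36, edgeR adjusted p = 0.0555 with all; -1.07, 1.25e-07 without). Psat1, Psph and Slc3a2, which act beside Phgdh and Slc7a5, differed by -0.10, -0.15 and -0.02 and were not called.

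The cytosolic aminoacyl-tRNA synthetases, which charge tRNAs, were looked at after their values were seen. Of 20 tested, 15 rose in BMDM (7.52% of all genes rose) and none in microglia, and 4 had a lower difference (0.74% of all genes): Cars (-0.51, kept in 12 runs), Yars (-0.45, 10 runs), Sars (-0.50, 9 runs) and Nars (-0.34, 2 runs). Hars, Qars and Farsb differed by 0.03, 0.09 and 0.12 and were not called. Without replicate 3, 9 rose in BMDM (5.77% of all genes rose), while 1 rose and 2 fell in microglia (2.59% and 3.68% of all genes). In that run 6 had a lower difference: Nars was lost (edgeR adjusted p = 0.0531), and Aars, Iars and Mars1 were added. Ddit3, a stress gene that ATF4 also drives, was likewise singled out after its values were seen. It read 92.9 to 99.4 CPM in vehicle microglia and 64.7 to 78.3 CPM with saringosterol, and 17.7 to 20.9 against 25.5 to 41.8 CPM in BMDM. Its difference of -1.17 was not called with all libraries (edgeR adjusted p = 0.0579) and was -0.91 without replicate 3 (1.21e-05).

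A few genes of the endoplasmic reticulum (ER) had a higher difference. Of 11 tested ER stress genes, 5 rose in microglia (median 0.24), where 1.63% of all genes rose. In BMDM 1 rose and 1 fell (median 0.06), where 7.52% of all genes rose and 5.22% fell. edgeR called 2 with a higher difference, Herpud1 and Manf (0.431% of all genes). Without replicate 3, Hsp90b1 was called higher as well (0.28) and Ddit3 lower. Herpud1, which serves protein degradation at the ER, stood at 36.6 to 40.4 CPM in vehicle microglia and 40.6 to 40.9 CPM with saringosterol, against 47.3 to 52.3 and 37.5 to 41.1 CPM in BMDM. It fell by 0.38 in BMDM, and the difference of 0.44 (edgeR adjusted p = 0.0201) was kept in 7 runs (0.012 to 0.073). Manf, a secreted ER chaperone, rose by 0.24 in microglia and differed by 0.35 (edgeR adjusted p = 0.0475), a call kept in 2 runs (0.021 to 0.16). The abundant chaperones Hspa5 and Calr differed by 0.11 and 0.14 and were not called.

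**Figure D4:**
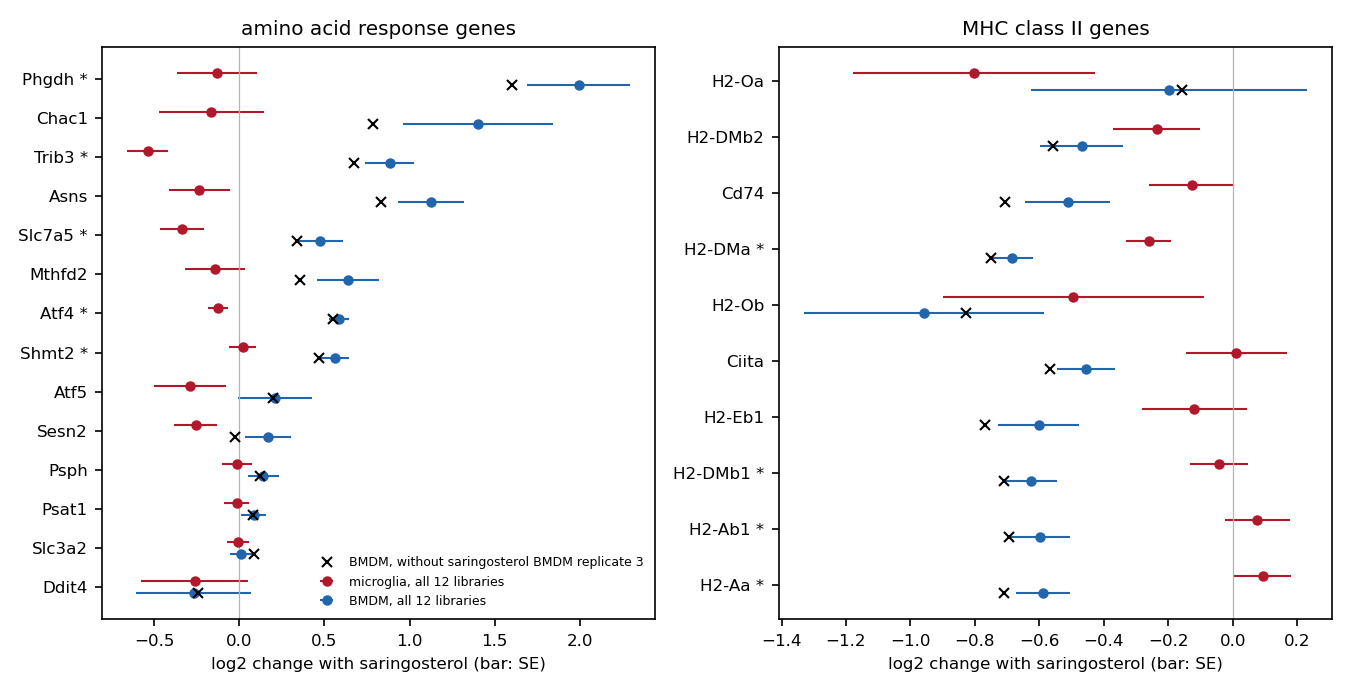
Log2 change with saringosterol (horizontal axis, bars are SE) of the tested members of the amino acid response list (left) and the MHC class II list (right), in microglia (red) and BMDM (blue) with all 12 libraries; crosses give BMDM without saringosterol replicate 3 and an asterisk marks members called for the difference. On the left 5 members carry an asterisk, with BMDM to the right of microglia; on the right 4 do, with BMDM to the left.

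MHC class II genes fell in BMDM, where most of them were far more abundant than in microglia. Of 10 tested members, 8 fell in BMDM (median -0.59) and 1 in microglia (median -0.12), where 5.22% and 1.61% of all genes fell. edgeR called 4 with a higher difference, H2-Aa, H2-Ab1, H2-DMb1 and H2-DMa, and none with a lower one. Over all genes tested, 0.431% were called higher. Without replicate 3 the number was 6, with H2-Eb1 and Cd74 added. Promoters of H2-Aa and H2-Eb1, from the RefSeq table of build GRCm38.p6, are printed because they hold the Y box that the activator of these genes works through; capitals mark CTGATTGG, each sequence reads 5′ to 3′ on the strand of its gene, and H2-Aa lies on the minus and H2-Eb1 on the plus strand (chr17:34287837-34287904 and chr17:34305775-34305842).
H2-Aa: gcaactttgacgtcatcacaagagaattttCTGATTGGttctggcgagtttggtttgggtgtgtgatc
H2-Eb1: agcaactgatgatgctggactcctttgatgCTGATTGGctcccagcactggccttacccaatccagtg
Searched on both strands in the 250 bases before the start, these letters were found for 3 of the 7 members with a promoter in the table (42.9%; also H2-Oa) and for 1198 of 27025 genes (4.43%). A match describes these windows only.

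H2-Aa, an antigen-binding chain, read 622, 518 and 555 CPM in vehicle BMDM and 349, 342 and 436 CPM with saringosterol, against 31.1, 29.8 and 32.3 and 31.8, 33.3 and 34.4 CPM in microglia. All treated BMDM libraries lay below the vehicle ones, while the microglia groups overlapped. It fell by 0.59 in BMDM (edgeR adjusted p = 0.000233), with a change of 0.09 in microglia (0.692). The difference was 0.68 ± 0.12 (SE, edgeR adjusted p = 0.0129), kept in 11 of the 12 runs (5e-06 to 0.066, lost without saringosterol microglia replicate 3).

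Its partner chain H2-Ab1 fell from 725 to 847 CPM to 480.1 to 594 CPM in BMDM and stood at 21.4 to 26.2 and 23 to 27.5 CPM in microglia (difference 0.67, edgeR adjusted p = 0.0336, kept in 4 runs, 0.00043 to 0.13). The peptide-loading genes H2-DMb1 and H2-DMa differed by 0.58 (edgeR adjusted p = 0.0198, kept in 7 runs) and 0.42 (0.0275, kept in 6 runs), and H2-DMa fell in both cell types, by 0.26 in microglia and 0.69 in BMDM. Cd74, the invariant chain, stood at 400.2 to 422 CPM in vehicle and 375 to 387 CPM in treated microglia. It read 1952, 1916 and 2770.0 CPM in treated BMDM and 2863 to 3484 CPM with vehicle, and its difference passed the threshold only without the third library (0.38, edgeR adjusted p = 0.375 with all; 0.58, 7.73e-05 without). Ciita, the activator of the class, fell by 0.46 in BMDM, from 54.0 to 60.1 CPM to 34.98 to 46.9 CPM, and differed by 0.47 (edgeR adjusted p = 0.219). H2-Ea, which the annotation lists as a polymorphic pseudogene, fell by 0.42 in BMDM and differed by 0.77 (edgeR adjusted p = 0.0423, kept in 3 runs); class II genes are similar in sequence, so its counts are uncertain. Markers of other antigen-presenting cells were low in BMDM. The B cell list summed to 4.17 to 5.21 CPM with vehicle and 3.40 to 3.50 CPM with saringosterol, and the dendritic cell list to 1.42 to 2.29 and 2.11 to 2.86 CPM. Their part in the fall was not tested.

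Apart from Plin2 and Trib3, 6 genes were called in both cell types with opposite changes. Selenop, which carries selenium in plasma, read 608, 603 and 611 CPM in vehicle microglia and 752, 762 and 773 CPM with saringosterol, and 1691, 1785 and 1801 against 1608, 1413 and 1423 CPM in BMDM. It rose by 0.33 in microglia and fell by 0.25 in BMDM (difference 0.58 ± 0.07, edgeR adjusted p = 0.000253), with no overlap in either. Slamf7, a receptor of the SLAM family, went from 20.7 to 22.8 CPM to 13.7 to 16.3 CPM in microglia, a fall of 0.55, and from 112 to 113 CPM to 120.1 to 152 CPM in BMDM, a rise of 0.25 (difference -0.80, edgeR adjusted p = 0.000569). Itga4, the integrin chain that binds VCAM1, rose by 0.45 in microglia and fell by 0.23 in BMDM (difference 0.69, edgeR adjusted p = 0.00274). The secreted factor gene Metrnl (-0.41; kept in 8 runs) and the processed pseudogene Gm8399 (0.57) were also among them; Gm8399 has close copies and is uncertain. The differences of these 5 genes were called with and without replicate 3, but the BMDM change alone was not called without it for Itga4 (edgeR adjusted p = 0.102), Gm8399 (0.0648), Metrnl (0.145) and Slamf7 (0.15).

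Among the other genes with a large higher difference, most were called as lower in BMDM and not called in microglia. Hpgd, which inactivates prostaglandins, read 94.5, 88.7 and 88.9 CPM in vehicle BMDM and 39.0, 40.7 and 44.1 CPM with saringosterol, against 53.4, 50.5 and 52.0 and 44.8, 45.8 and 50.5 CPM in microglia. Treated BMDM lay far below vehicle and the microglia groups met at 50.5 CPM. It fell by 1.14 in BMDM (edgeR adjusted p = 8.18e-11) and differed by 0.99 ± 0.09 (2.66e-06). Fxyd2, a regulator of the sodium pump, fell in BMDM from 9.08 to 13.1 CPM to 3.56 to 5.76 CPM and stood at 11.4 to 13.7 CPM in all 6 microglia libraries (difference 1.44, edgeR adjusted p = 0.0024). F13a1, a clotting factor chain made by monocytes and macrophages, fell from 13.6 to 17 CPM to 6.55 to 8.13 CPM in BMDM, against 5.58 to 7.22 CPM in microglia (difference 1.08, edgeR adjusted p = 0.00445). Beside it, the monocyte marker list summed to 24.0 to 34.6 CPM in vehicle BMDM and 16.2 to 28.6 CPM with saringosterol. The neutrophil list summed to 77.46 to 86.85 and then 56.46 to 73.03 CPM in BMDM. The osteoclast list summed to 321.1 to 344 and then 254.7 to 269.1 CPM in BMDM, and to 128.9 to 133.6 and then 104.2 to 111.3 CPM in microglia. Its member Dcstamp was lower in every treated library of both cell types, while Acp5 overlapped. The part of these lists was not tested.

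Fibronectin, Fn1, read 62.6, 81.3 and 102 CPM in vehicle BMDM and 23.7, 30.3 and 30.7 CPM with saringosterol, against 93.9 to 102 and 76.9 to 90.9 CPM in microglia. The treated libraries were the lower ones in both cell types, without overlap. It fell by 1.53 in BMDM, and the difference of 1.34 (edgeR adjusted p = 0.0402) was kept in 4 runs (0.0024 to 0.12). The sum of the fibroblast marker list moved with it in BMDM, from 2.69 to 3.95 CPM to 1.55 to 1.59 CPM. Its largest part was Pdgfrb, at 1.57 to 1.77 CPM with vehicle and 1.08 to 1.21 CPM with saringosterol. Col1a1 stood at 0.563 to 0.802 CPM in vehicle and 0.0245 to 0.0493 CPM in treated libraries, and Col1a2 was lower too. Col3a1 and Dcn overlapped between treatments, and Lum had counts only in treated replicate 3. The part of this list in the change of Fn1 was not tested. Stab1, a scavenger receptor, fell by 0.32 in BMDM and changed by 0.17 in microglia (difference 0.49, edgeR adjusted p = 0.0161, kept in 7 runs). Gpx3, Ldhb and Prkar2b fell by 0.85, 0.59 and 0.77 in BMDM, with microglia changes of -0.06, 0.12 and 0.07. Their differences of 0.79, 0.72 and 0.84 were kept in 2, 2 and 6 runs. Gm1673 and the processed pseudogene Gm6136 fell by 0.56 and 0.44 in BMDM, with microglia changes of 0.40 and 0.34 (differences 0.97 and 0.77, kept in 11 and 9 runs). For Stab1, Gm1673 and Gm6136 all treated microglia libraries lay above the vehicle ones. Bex1, in contrast, rose in microglia alone, from 0.231 to 0.359 CPM to 0.879 to 0.993 CPM, against 6.47 to 6.93 and 6.75 to 8.42 CPM in BMDM (difference 1.55, edgeR adjusted p = 0.0138, kept in 10 runs). The macrophage markers Lyz2 and Cd14, named after their values were seen, went apart. Lyz2, the macrophage lysozyme, fell by 0.41 in BMDM (difference 0.43, edgeR adjusted p = 0.00147), and Cd14, the co-receptor for lipopolysaccharide, fell by 0.55 in microglia (difference -0.45, 0.0227, kept in 7 runs).

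Several genes with a lower difference rose in both cell types, but more in BMDM. Lbp, the lipopolysaccharide-binding protein, read 4.76, 4.81 and 5.98 CPM in vehicle microglia and 16.7, 17.3 and 15.6 CPM with saringosterol, and 0.205, 0 and 0.343 against 3.06, 2.74 and 2.73 CPM in BMDM. No groups overlapped. It rose by 1.67 in microglia (edgeR adjusted p = 6.94e-05) and by 3.92 in BMDM (6.74e-07). The difference of -2.24 ± 0.44 (SE, edgeR adjusted p = 0.0163) rests on a BMDM vehicle level of a few counts, and was kept in 9 runs (0.003 to 0.059). The metalloproteinase gene Mmp27 rose by 0.78 in microglia, from 7.26 to 8.09 CPM to 12.7 to 13.7 CPM, and by 1.78 in BMDM, from 3.99 to 4.94 CPM to 13.3 to 16.97 CPM (difference -0.997 ± 0.17, edgeR adjusted p = 0.00378). Tgm2, a transglutaminase of the alternative activation list, rose by 0.71 and 1.503 (difference -0.79, edgeR adjusted p = 0.0179, kept in 7 runs).

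Others were called as higher with saringosterol in BMDM and not in microglia. Jun, a subunit of the factor AP-1, read 184, 185 and 195 CPM in vehicle BMDM and 243, 242 and 226 CPM with saringosterol, against 212 to 218 and 203 to 207 CPM in microglia. It rose by 0.33 in BMDM (edgeR adjusted p = 0.000102), with a change of -0.06 in microglia, and differed by -0.40 ± 0.07 (0.00567). The phosphatase gene Dusp1, which switches off stress kinases, rose from 72.3 to 78.1 CPM to 92.6 to 141 CPM in BMDM, against 92.0 to 104 and 76.5 to 81.0 CPM in microglia. Its difference of -0.92 (edgeR adjusted p = 0.0285) was kept in 3 runs, and was -1.05 (9.28e-07) without replicate 3, the lowest treated BMDM library. The microglia change of Dusp1, -0.32, was not called with all libraries (edgeR adjusted p = 0.23) and was called without replicate 3 (0.00383). A second phosphatase gene, Dusp10, the Wnt receptor gene Fzd8, the angiogenesis gene Vash2 and the sialyltransferase gene St3gal6 differed by -1.07, -1.01, -1.08 and -1.18, with 4.54 to 5.93, 2.43 to 2.75, 5.14 to 5.94 and 2.58 to 3.94 CPM in treated BMDM, and were kept in 7, 4, 6 and 4 runs. For St3gal6 the BMDM groups overlapped (1.46 to 2.71 CPM with vehicle), and its rise there was not called without replicate 3 (edgeR adjusted p = 0.207). In microglia it was lower in every treated library, by 0.52 (edgeR adjusted p = 0.118; 0.024 without replicate 3). The autophagy receptor Sqstm1 (-0.37, 3 runs) and the glycolytic enzyme Pfkp (-0.51, 7 runs) also rose in BMDM, by 0.21 and 0.29. In microglia both were lower in every treated library, by 0.16 and 0.22, and not called. Without replicate 3, Pfkp was called lower in microglia (edgeR adjusted p = 0.0119) and higher in BMDM (0.0496). Dusp10 and Vash2 were also lower in every treated microglia library, by 0.33 and 0.35, and not called. The complement receptor gene C3ar1 (-0.34, 4 runs) was called for the difference and in neither cell type.

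Interferon-stimulated genes gave a difference whose sign depended on one library. These genes are switched on by type I interferon and stop the spread of viruses. The promoters of Isg15, Cxcl10, Ifit3 and Stat2 are shown because they hold the site that interferon-activated factors read, the interferon-stimulated response element; capitals mark GAAA, NN (any base at both places) and GAAA in a row, or the reverse complement, and each sequence runs 5′ to 3′ on the strand of its gene in RefSeq, GRCm38.p6 (chr4:156200845-156200926, minus; chr5:92349063-92349132, minus; chr19:34583343-34583446, plus; chr10:128270248-128270315, plus).
Isg15: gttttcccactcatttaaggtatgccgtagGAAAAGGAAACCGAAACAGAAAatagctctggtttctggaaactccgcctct
Cxcl10: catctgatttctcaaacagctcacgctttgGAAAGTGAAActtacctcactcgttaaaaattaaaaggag
Ifit3: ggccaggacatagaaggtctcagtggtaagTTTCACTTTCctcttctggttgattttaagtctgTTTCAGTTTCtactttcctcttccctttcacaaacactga
Stat2: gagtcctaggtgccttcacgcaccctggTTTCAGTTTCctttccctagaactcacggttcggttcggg
On either strand of the 250 bases before the start, the motif was found for 9 of 20 list members with a promoter in the table (45%) and for 936 of 27025 genes (3.46%). Isg15 holds 3 overlapping matches and Ifit3 holds 2.

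The 29 members summed to 3717, 4003 and 4092 CPM in vehicle microglia and 2410, 2425 and 2356 CPM with saringosterol. In BMDM the sums were 1234, 868.5 and 1094 CPM with vehicle and 473.5, 540.4 and 1961 CPM with saringosterol. Treated replicate 3 exceeded treated replicates 1 and 2 for each of the 29 members (median log2 excess over their mean 2.15). The share of all genes that were highest in that library is not given here. Microglia thus had lower sums without overlap, and BMDM had 2 treated libraries below and 1 above all vehicle libraries. With all 12 libraries edgeR, DESeq2 and limma-voom called no difference. At an unadjusted edgeR p under 0.05 stood 1 member, against 2505 of all 16481 genes tested. The median difference was -0.47, and 27 of 29 differences were negative. Without replicate 3, 6 members were called higher, the median was 0.53 and 28 of 29 were positive. In that run 24 members fell in microglia (3.68% of all genes fell) and 28 in BMDM (5.58%), with a BMDM median of -1.40. In the fit of the 6 microglia libraries alone, 28 of 29 fell, where 6.23% of all genes did. The fit of all 12 libraries called none of the 29 in microglia.

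Isg15, a ubiquitin-like protein, read 67.3, 78.8 and 77.6 CPM in vehicle microglia and 37.8, 40.5 and 38.2 CPM with saringosterol, and 19.2, 12.7 and 17.02 against 5.14, 4.12 and 27.9 CPM in BMDM. Its difference was -0.56 with all libraries (edgeR adjusted p = 0.808) and 0.89 without replicate 3 (0.0229). Ifit2, which binds viral RNA, read 319.9, 363 and 358 and then 171, 178 and 177 CPM in microglia, and 78.2, 54.0 and 71.1 and then 13.4, 11.4 and 129.9 CPM in BMDM (difference -0.60, edgeR adjusted p = 0.854; 1.47, 0.00349 without replicate 3). In both genes the third treated BMDM library exceeded all vehicle BMDM libraries. Usp18 (1.16), Mx1 (1.26), Ifit3b (2.05), Ifit1bl2 (2.32), Gbp4 (2.25), Gbp5 (1.78), Iigp1 (2.10) and Fgl2 (1.08) were likewise called higher only without that library. The Ifit, Gbp and Mx families hold close copies, and the annotation lists Mx1 as a polymorphic pseudogene, so their counts are uncertain. The factor gene Irf7 differed by -1.88 with all libraries and 0.40 without (edgeR adjusted p = 0.523 and 0.661).

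**Figure D5:**
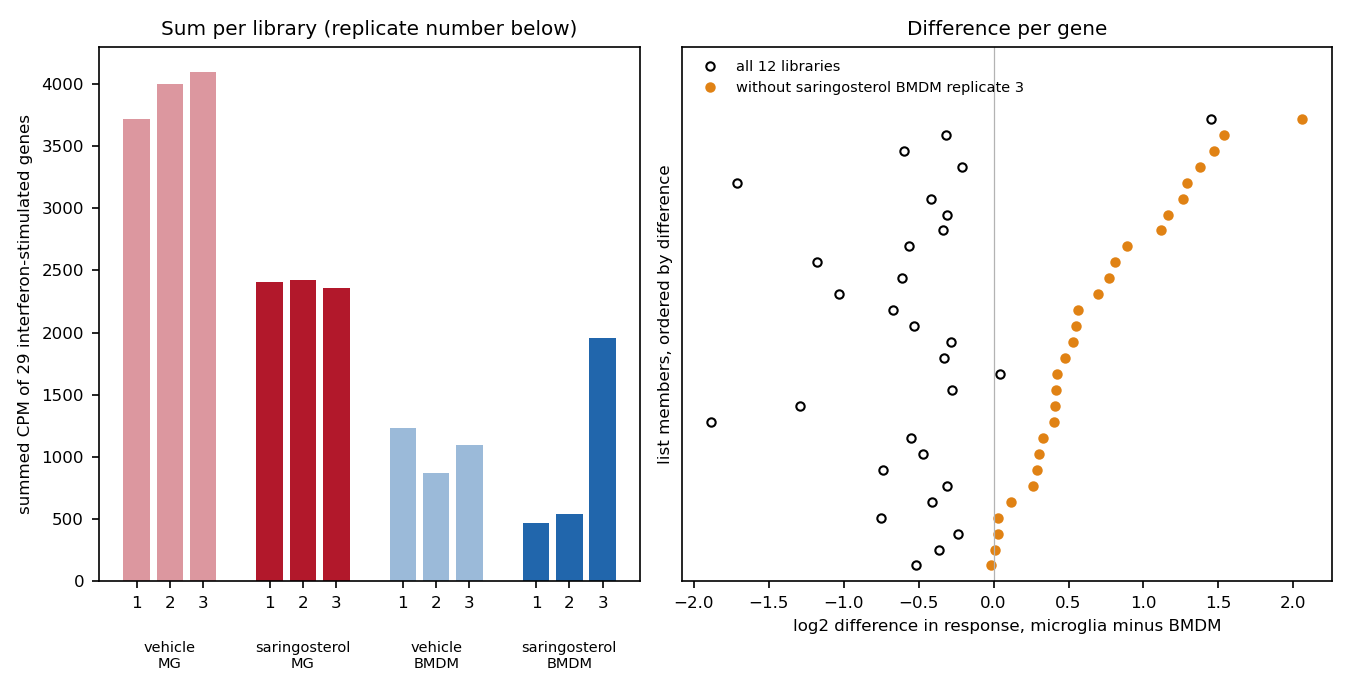
Left, summed CPM of the 29 interferon-stimulated genes in each library (bars from 0, replicate number below). Right, log2 difference in response, microglia minus BMDM, of each member with all 12 libraries (open) and without saringosterol BMDM replicate 3 (filled). The third treated BMDM library reaches 1961 CPM against 473.5 and 540.4 CPM for the others, and 27 of 29 open points lie below 0 against 1 of 29 filled points.

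Class I MHC genes, which interferon also raises, gave 0 of 11 calls for the difference with and without replicate 3 (edgeR, DESeq2 and limma-voom; none at an unadjusted edgeR p under 0.05). With all libraries none of the 11 was called in either cell type (median change -0.38 in microglia and -0.09 in BMDM). Without replicate 3 all 11 fell in both (3.68% and 5.58% of all genes fell). In the 6-library fits all 11 fell in microglia and none in BMDM. Inflammatory cytokines and chemokines had a median difference of -1.24 over 18 tested genes. With all libraries edgeR called none, DESeq2 3 and limma-voom 2, all lower. At an unadjusted edgeR p under 0.05 stood 8 of the 18, against 2505 of all 16481 genes tested. Without replicate 3 edgeR called 4 as lower (1.02% of all genes), namely Ccl4, Ccl7, Cxcl1 and Il1rn, with the median at -0.29. In BMDM 7 rose with all libraries, where 7.52% of all genes did. Ccl4, a chemokine for monocytes and lymphocytes, read 134, 154 and 146 and then 157, 157 and 169 CPM in microglia, and 20.3, 17.3 and 14.8 and then 37.9, 31.1 and 47.1 CPM in BMDM. It rose by 1.15 in BMDM, and its difference of -0.99 (edgeR adjusted p = 0.0618) became -0.82 (0.00407) without replicate 3. Il1rn, the antagonist of interleukin-1, was 822 to 885 CPM in microglia under both treatments and read 124, 123 and 243 CPM in treated BMDM (difference -0.77, edgeR adjusted p = 0.339; -0.36, 0.011 without).

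The remaining lists held few or no members that differed. One member each was called among NRF2 targets (Sqstm1, 11 tested), complement (C3ar1, 11 tested), glycolysis (Pfkp, 13 tested), scavenger receptors (Stab1, 10 tested) and alternative activation (Tgm2, 10 tested), and 2 among 16 immediate early genes (Jun and Dusp1). Without replicate 3, Gclm (0.49) and Prdx1 (0.34) of the NRF2 targets, Mrc1 (0.61) of alternative activation and Klf2 (0.66) of the immediate early genes were called higher as well. In that run complement had 3 members called higher and 2 lower; C1qa, part of the first complement component, then differed by 0.67 (edgeR adjusted p = 0.00234) against 0.28 (0.756) with all libraries. edgeR called no member of 8 sterol uptake, 13 fatty acid synthesis, 13 fatty acid oxidation, 13 NF-kappaB, 12 homeostatic microglia, 18 disease-associated microglia, 21 cell cycle or 12 lysosomal genes. At an unadjusted p under 0.05 these numbered 0, 3, 1, 3, 0, 7, 3 and 3, against 2505 of all 16481 genes tested. DESeq2 called 2 NF-kappaB genes and 1 lysosomal gene and limma-voom 1 of each, and neither called a member of the other 6 lists. Cell cycle genes rose in both cell types, 6 of 21 in microglia (median 0.28) and 15 in BMDM (median 0.43), where 1.63% and 7.52% of all genes rose. Their median difference was -0.06. Csf1r fell in both, by 0.38 and 0.44 (difference 0.06, edgeR adjusted p = 0.791).

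Some features of the libraries moved with the difference. Mitochondrial transcripts took 0.512 to 0.625% of counts in vehicle BMDM, 0.358 to 0.444% in treated BMDM and 0.250 to 0.326% in all microglia; of 13 mitochondrial protein genes 11 fell in BMDM (5.22% of all genes fell), and mt-Atp6 (0.67, kept in 9 runs) and mt-Nd1 (0.47, 7 runs) had a higher difference (0.431% of all genes). Without replicate 3, 9 fell in BMDM and 4 had a higher difference. Genes called higher were shorter (median length 2795 bases) and genes called lower were longer (4808.5 bases) than all tested genes (3595.0 bases). Across the 10121 genes of at least 5 CPM, Spearman's rho of length with the change was 0.227 in BMDM and -0.0503 in microglia; these genes share the same libraries and are not independent replicates. A fit that removed each library's trend with length called 98 genes higher and 106 lower in place of 71 and 122. Of the 71 genes called higher, 53 stood lower in vehicle microglia than in vehicle BMDM. Of the 122 called lower, 102 stood higher there. Over all 16481 genes tested, 8115 stood lower and 8366 higher. The gap between the cell types narrowed with saringosterol for 71.5% of called genes and 58.2% of all genes tested. The vehicle libraries enter both this gap and the difference, so these counts are not independent of the calls. The part of these features in the calls was not tested beyond the length fit.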

How the data were processed

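RNA of 12 libraries was primed with oligo-dT and amplified with the SMARTer Ultra Low kit, per the labels' protocols. The submitters' processing notes name bcl2fastq, STAR 2.5.1a, build GRCm38 and, for counting, featureCounts 1.4.6-p5 (Subread). For the annotation release, the strand setting and reads that map to several places, the sources used here state nothing. The authors deposited raw read counts per gene, which were used without change. Of 55774 lines, 168 identifiers stood on several identical lines and were kept once, leaving 55487 genes.

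edgeR 4.0.16 (R 4.3.3; filterByExpr, TMM scaling, robust quasi-likelihood fit) was fitted to all 12 libraries, and p-values were adjusted by Benjamini-Hochberg over all tested genes at a threshold of 0.05. CPM values were computed here with TMM scaling, and marker sums on plain totals. DESeq2 1.42.0, limma 3.58.1 (voom) and other scalings, filters and sets of libraries were run as alternatives, and the code was tested on simulated data.

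Members and lists were chosen with earlier results of these data known. The genes named were the 12 largest higher and 12 largest lower differences called with and without saringosterol BMDM replicate 3 (at least 5 CPM in a group), up to 4 called and 2 uncalled members of each of 23 pathway lists, 10 genes whose call depended on that library, and genes with opposite changes. Abca1, Slc7a5, Psat1, Psph, Mthfd2, Ddit3, Ciita, C1qa, Sqle, Sc5d, Ccl7, Cxcl1, Col1a1, Hsp90b1, Gclm, Klf2, mt-Atp6, mt-Nd1 and the tRNA synthetases lie outside this rule and were named after their values were seen; markers and genes shown for their promoters lie outside it too. Promoters came from RefSeq. A few genes that the rule named are not reported here.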

Additional observations from a re-analysis of the deposited data

Results flagged for a closer look

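Each value here is a called difference between the microglia and the BMDM response (log2, microglia minus BMDM, 3 libraries a group, edgeR adjusted p under 0.05); in all, 193 genes showed one. No group was tested for single outlying libraries, since groups of 3 are too small for that test.

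Lipid and sterol genes were Plin2 (-0.98), its neighbour Gm12551 (-0.92), Soat2 (-3.04) and Sgms2 (0.98). Amino acid response genes were Atf4 (-0.71), Trib3 (-1.42), Phgdh (-2.13) and Shmt2 (-0.54), and ER genes were Herpud1 (0.44) and Manf (0.35). MHC class II genes were H2-Aa (0.68), H2-Ab1 (0.67), H2-DMb1 (0.58), H2-DMa (0.42) and H2-Ea (0.77). Genes with opposite changes were also Selenop (0.58), Itga4 (0.69), Gm8399 (0.57), Metrnl (-0.41) and Slamf7 (-0.80).

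Other higher differences were those of Bex1 (1.55), Fxyd2 (1.44), Fn1 (1.34), F13a1 (1.08), Hpgd (0.99), Gm1673 (0.97), Prkar2b (0.84), Gpx3 (0.79), Gm6136 (0.77), Ldhb (0.72) and Stab1 (0.49). Other lower differences were those of Lbp (-2.24), St3gal6 (-1.18), Vash2 (-1.08), Dusp10 (-1.07), Fzd8 (-1.01), Mmp27 (-0.997), Dusp1 (-0.92), Tgm2 (-0.79), Pfkp (-0.51), Jun (-0.40), Sqstm1 (-0.37) and C3ar1 (-0.34).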

How the results depend on the processing

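The number of genes called for the difference (193; 71 higher, 122 lower) was 606 without a filter on low counts (318 higher, 288 lower), 521 with DESeq2 (209, 312), 413 with limma-voom (158, 255), 385 with 18 libraries (132, 253) and 382 with 27 libraries (146, 236). It was 190 with RLE scaling, 237 with upper-quartile scaling and 204 with the length trend removed, an alternative chosen after seeing the data. Changes called in microglia (533) numbered 1334 with limma-voom and 1562 in the 6 microglia libraries alone, and those in BMDM (2099) numbered 1295 in the 6 BMDM libraries alone. The cause of these shifts was not tested.

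Leaving out 1 library gave 65 to 375 called differences (21 to 164 higher, 44 to 246 lower), 250 to 1069 changes in microglia and 1289 to 2278 in BMDM. The count was over 1.5 times smaller without saringosterol microglia replicate 2 (97) or 3 (65), vehicle microglia replicate 2 (72) or 3 (71), or vehicle BMDM replicate 1 (120) or 2 (85). It was over 1.5 times larger without saringosterol BMDM replicate 1 (375) or 3 (338), or vehicle BMDM replicate 3 (342). No difference called with all 12 libraries for a named gene changed sign in any setting. Interferon genes such as Isg15 and Ifit2 (-0.56 and -0.60, not called with all libraries) turned to 0.89 and 1.47, both called, without saringosterol BMDM replicate 3. Of the 193 genes, 110 were called in all 9 other settings.

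Within a cell type, deviations of vehicle and treated libraries with the same replicate number correlated between -0.152 and 0.0328. Pairs with different numbers lay between -0.108 and 0.129. With groups of 3, these values cannot tell whether equal numbers share an animal or culture, and microglia were not paired with BMDM. With the number as a replicate block the count was 164 within cell types and 167 shared by both.

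With a median SE of 0.195 on the log2 scale, small differences in response could be missed for many genes. Some small ones of abundant genes were called, such as C3ar1 (-0.34 ± 0.08, SE). Genes of a few counts in BMDM, such as Soat2 and Lbp, have loosely determined sizes.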
